A study of Mus musculus with 32 samples.

Results

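Haematopoietic stem and progenitor cells of young adult mouse bone marrow were compared with those of neonatal bone marrow by ATAC-seq, a method that tags open chromatin with a transposase so that read counts measure how accessible a stretch of DNA is. The young adult pool held the 6 libraries titled 6w BM and 8w BM, 3 of each, and the neonatal pool the 6 libraries titled Perinatal BM and 1w BM, 3 of each, so that 12 of the 32 libraries of the series entered the comparison. Libraries were chosen by their titles alone, and only autosomal regions were counted. All 12 came from C57BL/6 mice with no transgene or treatment named, and the labels give the cell type as LSK. LSK cells lack markers of mature lineages and carry Sca-1 and Kit on their surface, a gate that mixes stem cells with early progenitors. The series also holds 3w and 4w marrow (5 libraries), fetal liver of E12.5 and E16.5 (6 libraries), E12.5 PL libraries and cultured cells. Those of marrow and fetal liver are used below only to place the 2 pools in time. Comparing libraries from the same organ leaves the move from the liver to the marrow out of the contrast.

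Around birth, blood stem cells colonise the marrow and keep cycling for some weeks before most of them become quiescent. In the same period they lose a fetal program built on the RNA-binding proteins Lin28b and the Igf2bp family and on the chromatin protein Hmga2, and their progeny shift from fetal-type to adult-type lymphoid and myeloid cells. Accessible regions include promoters, where transcription starts, and distal elements such as enhancers, whose opening and closing usually accompanies such shifts in identity.

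The 12 libraries held between 2789981 (1w BM 2) and 9981107 (1w BM 3) counts over autosomal regions, and levels below are in CPM, counts scaled by TMM to a common library size. The library 8w BM 3 carries the stage label E12.5 although its title reads 8w BM, and it was grouped by title. Accessibility summed over 4 LSK markers (Kit, Ly6a, Cd34 and Ptprc) ran from 400 to 445 CPM in neonatal and from 382 to 445 CPM in young adult libraries, so the pools overlapped. Markers of other blood and tissue cells overlapped between the pools as well, except for 2 sets: 4 B cell markers summed to 162 to 205 CPM in neonatal and 120 to 154 CPM in young adult libraries, and 4 macrophage markers to 125 to 151 and 166 to 177 CPM. In bulk samples such as these, fewer cells of a type and less open chromatin per cell cannot be told apart. Whether the libraries of a group represent different mice is not stated in the labels, so a p-value here measures spread between libraries that may be technical.

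Young adult and neonatal marrow cells differed at many regions, in nearly equal numbers in each direction. Of 74668 regions tested, 7095 passed (9.5%; edgeR quasi-likelihood test, Benjamini-Hochberg adjusted p under 0.05), 3508 higher (4.7%) and 3587 lower (4.8%) in young adult marrow. Most changes were moderate: the median log2 fold change was 0.84 among higher and -0.94 among lower regions, 1236 and 1553 regions changed at least 2-fold, and 109 and 96 at least 4-fold. The extremes were a log2 fold change of 3.77 and one of -3.26. Every young adult library lay above every neonatal library at 1390 of the higher regions and below it at 1176 of the lower ones. Over all tested regions, such complete separation was seen at 2.21% in the higher and 1.74% in the lower direction. Without 8w BM 3, 6305 regions passed, of which 5671 were among the 7095. Scaling by total counts in place of TMM kept the number near 7210 but moved the share of higher regions among the calls from 49.4% to 41.6%.

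Counts were also summed per gene over all regions nearest to it, and 2044 of 15881 genes passed (12.9%), 1081 higher (6.81%) and 963 lower (6.06%). At an unadjusted p under 0.05 there were 4338 genes (27.3%), and the pools did not overlap at 411 higher (2.59%) and 235 lower genes (1.48%). With total counts the share of higher genes among the calls was 42.7% in place of 52.9%. Both kinds of change often met at the same gene: 2398 genes had a higher region, 2293 a lower region and 462 had both. Principal components of the 12 libraries were taken over the 5000 regions of highest variance among those above the median level. The first held 41.1% of the variance of these regions. On it neonatal libraries lay between -42.2 and -9.1 and young adult libraries between 25.1 and 33.8, with no overlap.

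Among the regions that rose most clearly in young adult marrow were those at Col16a1, Adgrg1, Rgs1, Tspoap1 and Klf9. A region inside Col16a1 (chr4:130074985-130075620, build mm10), which encodes a fibril-associated collagen, measured 24.4, 27.0 and 35.3 CPM (lowest, median and highest) in young adult and 1.29, 2.42 and 4.25 CPM in neonatal libraries. The log2 fold change was 3.30 (SE 0.21, adjusted p = 1.7e-14), and the deposited peak lists called a peak there in 6 young adult and 0 neonatal libraries. Adgrg1 encodes GPR56, an adhesion receptor of haematopoietic stem cells. Its region (chr8:95012360-95013113, inside the gene) measured 94.4, 122 and 140 CPM against 19.2, 25.7 and 42.1 CPM, a log2 fold change of 2.04 (SE 0.13, adjusted p = 4.7e-14). It was the only one of the 16 Adgrg1 regions to pass, and the gene's sum had a log2 fold change of 0.21 (adjusted p = 0.057). At both regions the pools were far apart, and the mean of the Adgrg1 region had already reached 95.7 CPM in 3w marrow. Rgs1 encodes a regulator that shortens signalling of chemokine receptors and other G protein-coupled receptors, and its region (chr1:144243262-144244691) rose from 26.9, 44.6 and 92.7 CPM to 169, 218 and 336 CPM (log2 fold change 2.22, SE 0.17, adjusted p = 2.9e-12). The region in Tspoap1 (chr11:87758364-87759426), a gene for a scaffold protein, rose from 14.2, 26.6 and 45.4 CPM to 136, 163 and 253 CPM (log2 fold change 2.53, SE 0.17, adjusted p = 5.6e-14). These 2 regions were also higher in 1w than in Perinatal BM (log2 fold change 0.85, adjusted p = 0.033, and 0.87, adjusted p = 0.04), so part of their rise fell inside the neonatal pool. At Adgrg1, Rgs1 and Tspoap1 a peak was called in 6 young adult libraries, and in 5, 6 and 2 neonatal libraries. Unlike Col16a1, these regions thus had peaks in neonatal marrow too.

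Klf9, a Krüppel-like factor induced by glucocorticoid and thyroid hormone receptors, had a region 4894 bp from the gene (chr19:23134729-23136332) that rose from 24.2, 34.7 and 41.4 CPM to 83.4, 88.0 and 113 CPM (log2 fold change 1.41, SE 0.11, adjusted p = 9.4e-12). A peak was called there in 6 libraries of each pool. The region over the Klf9 promoter rose less, with a log2 fold change of 0.75 (SE 0.12, adjusted p = 3.7e-05). The 250 bases before its transcription start (chr19:23140976-23141225, plus strand, from RefSeq on GRCm38.p6) are shown 5′ to 3′ because they lie in that region, with the only match to a searched motif, the AP-1 letters TGANTCA, in capitals.
Klf9 promoter: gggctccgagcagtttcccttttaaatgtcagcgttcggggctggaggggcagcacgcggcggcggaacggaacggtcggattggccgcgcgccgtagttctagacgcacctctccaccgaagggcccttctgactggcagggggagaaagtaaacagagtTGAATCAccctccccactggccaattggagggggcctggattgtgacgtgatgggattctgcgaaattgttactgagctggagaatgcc
The remaining regions named by the rule in this direction lay near Actb (chr5:142901875-142902654), Neat1 (chr19:5840539-5841118), Trpc6 (chr9:8693062-8693657), Banf2os (chr2:144224265-144224892), Actg1 (chr11:120343828-120344564), Ang6 (chr14:43998496-43999005) and Creb5 (chr6:53707661-53708241). Their log2 fold changes ran from 2.11 at Creb5, which encodes a CREB-family transcription factor, to 3.56 at Neat1. At Creb5 the promoter region went the other way, with a log2 fold change of -0.47 (adjusted p = 0.047). Actb and Actg1 encode the cytoplasmic actins, and their regions lay 461 and 1123 bp from the genes and outside them. The Actb region measured 29.2, 43.1 and 95.1 CPM in young adult and 2.66, 4.68 and 7.47 CPM in neonatal libraries. At the Actb and Neat1 regions a peak was called in only 2 young adult and 0 neonatal libraries.

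Regions that fell most clearly in young adult marrow were led by Igf2bp3, a fetal RNA-binding protein that stabilises target messages. A region 2202 bp from the gene (chr6:49217671-49218357) fell from 37.8, 56.4 and 61.4 CPM in neonatal to 7.07, 10.1 and 12.2 CPM in young adult libraries (log2 fold change -2.46, SE 0.15, adjusted p = 5.8e-15). Peg3, a paternally expressed imprinted gene for a zinc finger protein, followed. Its region (chr7:6727243-6728975, inside the gene) fell from 37.5, 54.3 and 99.5 CPM to 6.92, 9.23 and 14.3 CPM (log2 fold change -2.72, SE 0.20, adjusted p = 1.1e-12). No library of a pool reached the level of the other at either region. A deposited peak was still called in 5 young adult and 6 neonatal libraries at the Igf2bp3 region, and in 0 and 5 at the Peg3 region. At Peg3 part of the fall lay inside the neonatal pool: 1w BM was below Perinatal BM by a log2 fold change of -0.99 (adjusted p = 0.0017), with means of 42 and 81.3 CPM. Fetal liver means there were 115 CPM at E12.5 and 69.6 CPM at E16.5.

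Several of the other closing regions were more open in neonatal marrow than in either the fetal liver or the young adult marrow. The region 33953 bp from Etv1 (chr12:38904436-38905024), a gene for an ETS transcription factor, measured 7.92, 12.2 and 17.7 CPM in neonatal and 1.09, 2.58 and 4.25 CPM in young adult libraries (log2 fold change -2.21, SE 0.26, adjusted p = 1.3e-07), and its fetal liver means were 5.25 CPM at E12.5 and 4.60 CPM at E16.5. Inside St8sia1 (chr6:142917349-142917857), which encodes a sialyltransferase that makes the ganglioside GD3, levels were 18.9, 22.7 and 30.0 CPM against 4.94, 9.69 and 10.5 CPM (log2 fold change -1.48, SE 0.18, adjusted p = 1.3e-07), with 10.7 and 7.34 CPM in the liver. Cmklr1 encodes the receptor for the chemoattractant chemerin. Its region (chr5:113627968-113628559) fell from 7.67, 10.9 and 14.8 CPM to 1.90, 2.81 and 3.60 CPM (log2 fold change -2.03, SE 0.24, adjusted p = 1.6e-07), with 4.32 and 4.61 CPM in the liver. These liver values describe the time course and were not tested against the neonatal pool. The promoter region of Armh4 (chr14:49782925-49783701) fell by 1.98 on the log2 scale (SE 0.22, adjusted p = 5.1e-08), and there the E12.5 liver mean, at 28.8 CPM, was above every neonatal library. Further regions lay near Olfr1226, Wdr60, Csmd1, Trim30d, Pdzrn3 and Cdk18, with log2 fold changes from -2.59 at Wdr60 (chr12:116254576-116255123) to -1.41 at Cdk18 (chr1:132102030-132102629). The Cdk18 region is 10918 bp from that gene and overlaps the promoter of another gene. All 24 regions kept their direction and an adjusted p under 0.05 in every alternative setting (552 pairs of a region and a setting). They were chosen for small p and pools that did not overlap, and the settings share most libraries, so this was likely from the start.

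**Figure D1:**
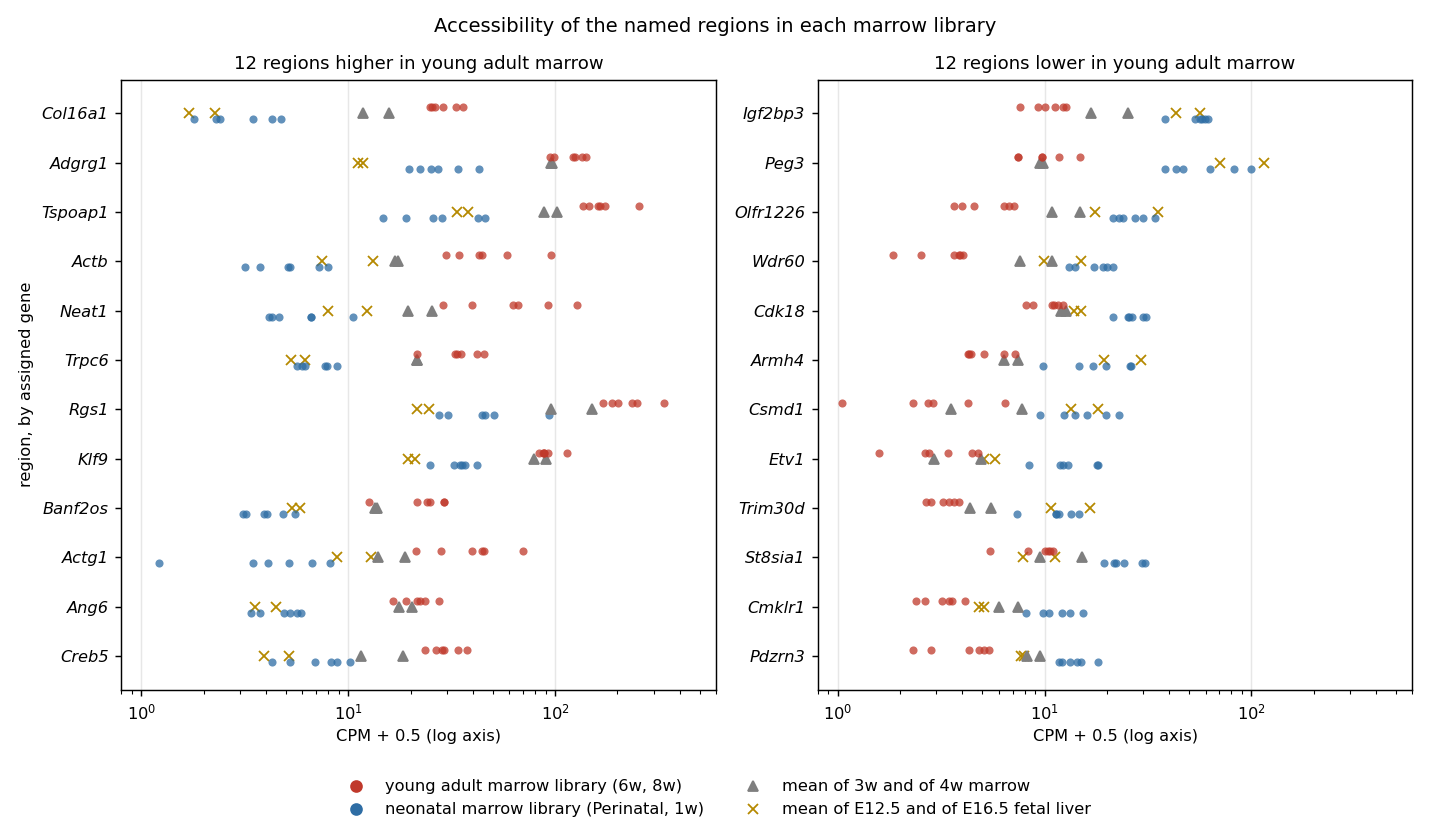
CPM plus 0.5 on a log axis for the 12 named regions in each direction, with red points for the 6 young adult and blue points for the 6 neonatal libraries, grey triangles for the means of 3w and 4w marrow and crosses for the means of E12.5 and E16.5 fetal liver. Red and blue points do not overlap in any of the 24 regions, and at Etv1, St8sia1 and Cmklr1 the liver crosses sit nearer to the young adult points.

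Genes of the fetal-type program made the clearest group, and all called members were lower in young adult marrow. Of 20 genes in this list, 11 fell and 0 rose, against 6.06% of all genes lower and 6.81% higher, and the median log2 fold change was -0.36 against 0.00 over all genes. Accessibility summed over the 9 regions of Igf2bp3 fell from 111, 141 and 157 CPM in neonatal to 32.3, 42.2 and 57.3 CPM in young adult libraries (log2 fold change -1.69, SE 0.11, adjusted p = 1.4e-12). Lin28b, which blocks maturation of let-7 microRNAs and marks fetal-type blood stem cells, fell from 35.1, 49.0 and 56.9 CPM to 18.2, 22.1 and 30.4 CPM (log2 fold change -1.10, SE 0.13, adjusted p = 9.4e-07). The pools did not overlap at either gene. Hmga2, a let-7 target that supports self-renewal of fetal stem cells, fell by less, from 158, 174 and 192 CPM to 131, 136 and 145 CPM (log2 fold change -0.41, SE 0.07, adjusted p = 1e-04). Igf2bp2 fell by 0.48 on the log2 scale (adjusted p = 2.8e-04), whereas Igf2bp1, the remaining family member, had a log2 fold change of -0.67 with wide spread (SE 0.23, adjusted p = 0.054) and did not pass. Igf2bp1 had its higher levels before this window, at a mean of 52.9 CPM in E12.5 liver against 19.4 CPM in Perinatal BM. The remaining called members are named to complete the list and were chosen after their values were seen: Plagl1, H19, Grb10 and Dlk1, which are imprinted, Trim71, itself a let-7 target, and Sox17, needed by fetal blood stem cells, with log2 fold changes from -0.56 at H19 to -0.27 at Dlk1. With the 12 libraries left out in turn and the other settings that used all regions, 9 to 12 members of the list were lower. The number was 7 with 6w BM alone and 9 with 8w BM alone as young adult, and 8 with regions at gene ends only.

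Counts at Igf2bp3 and Lin28b also fell over the promoters at the RefSeq starts used here, where levels were low and deposited peaks few or absent. At Igf2bp3 the promoter region (chr6:49214537-49215037) averaged 1.73 ± 0.76 CPM (SD, n = 6) in young adult and 8.65 ± 3.2 CPM (n = 6) in neonatal libraries, a log2 fold change of -2.40 (adjusted p = 9.6e-07). It had a deposited peak in 0 libraries of either pool. The neighbouring region, upstream of that start (chr6:49215210-49215776), fell further, from 27.1 ± 4.0 to 3.03 ± 1.6 CPM (log2 fold change -3.20, adjusted p = 2.1e-13), and had a deposited peak in 6 neonatal and 0 young adult libraries. At Lin28b the promoter region (chr10:45470025-45470525) fell from 8.96 ± 2.3 to 2.14 ± 1.0 CPM (log2 fold change -2.06, adjusted p = 2.4e-06). It had a deposited peak in 2 neonatal and 0 young adult libraries. The most open Lin28b region (chr10:45485511-45486657) lay inside the gene, 15883 bp from the start used here. It fell less, from 25.3 ± 7.9 to 15.4 ± 2.9 CPM (log2 fold change -0.77, adjusted p = 0.0028). A deposited peak was called there in 5 libraries of each pool. Both promoters are shown as the 250 bases before the RefSeq start on GRCm38.p6, minus strand, 5′ to 3′ (chr6:49214955-49215204 and chr10:45470202-45470451). Capitals mark motif matches, which are descriptions of the letters and not evidence of binding: the interferon-stimulated response element, ISRE, at the end of a pyrimidine run in Igf2bp3, and the GATA letters AGATAA, once on each strand, and the MEIS letters TGACAG in Lin28b.
Igf2bp3 promoter: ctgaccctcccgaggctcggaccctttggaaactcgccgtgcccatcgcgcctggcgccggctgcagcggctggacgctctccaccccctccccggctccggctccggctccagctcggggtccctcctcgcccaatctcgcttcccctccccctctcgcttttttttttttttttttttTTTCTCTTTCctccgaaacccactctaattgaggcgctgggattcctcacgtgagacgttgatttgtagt
Lin28b promoter: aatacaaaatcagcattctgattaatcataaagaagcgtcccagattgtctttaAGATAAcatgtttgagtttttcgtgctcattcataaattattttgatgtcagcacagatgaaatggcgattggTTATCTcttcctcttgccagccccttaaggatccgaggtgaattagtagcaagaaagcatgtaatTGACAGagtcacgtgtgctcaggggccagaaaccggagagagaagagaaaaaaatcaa
Summed over its 3 regions, Peg3 fell from 62.7, 83.7 and 142 CPM to 23.1, 25.5 and 32.7 CPM (log2 fold change -1.83, SE 0.16, adjusted p = 1.8e-09) and had its young adult level by 3w, at a mean of 27.9 CPM. Igf2bp3 went down in more steps, with means of 136 CPM at 1w, 86.3 CPM at 3w, 68.6 CPM at 4w, 43.8 CPM at 6w and 45.2 CPM at 8w.

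**Figure D2:**
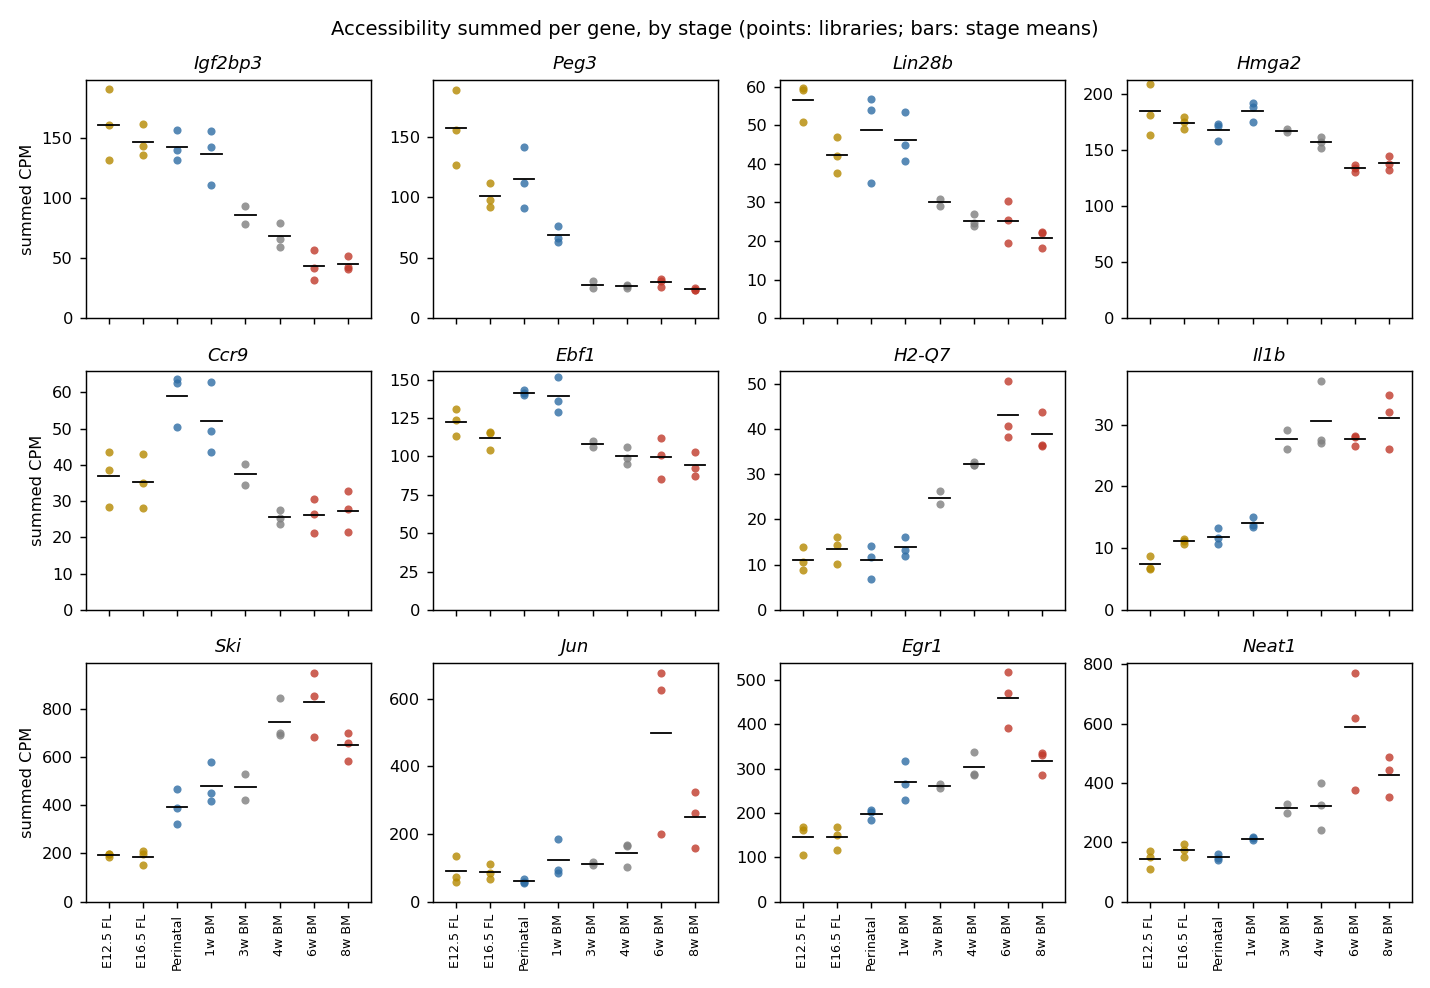
Summed CPM per gene (vertical axis, linear and starting at 0) for 12 named genes across fetal liver (FL) and marrow (BM) stages, with 1 point per library and bars for stage means. Igf2bp3, Peg3, Lin28b and Hmga2 are lower in the red 6w and 8w points than in the blue neonatal points, H2-Q7 and Il1b are higher, and Jun spreads from 160 to 675 CPM among the young adult libraries.

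Most of the called genes in the lymphoid list were lower in young adult marrow. In the lymphoid and B cell list, 6 of 22 measured genes fell and 1 rose, with a median log2 fold change of -0.14. Over all genes, 6.06% fell and 6.81% rose. Ccr9, the chemokine receptor of cells that home to the thymus, fell from 43.7, 56.5 and 63.7 CPM to 21.2, 27.1 and 32.7 CPM (log2 fold change -1.09, SE 0.12, adjusted p = 6.4e-07). Ebf1, the transcription factor that commits cells to the B lineage, fell from 129, 140 and 152 CPM to 85.3, 96.9 and 112 CPM (log2 fold change -0.57, SE 0.07, adjusted p = 2.3e-06). Neither gene's pools overlapped, and both were lower in the fetal liver than in neonatal marrow (Ccr9 35.4 CPM and Ebf1 112 CPM at E16.5). Cd79a, part of the B cell receptor, was low throughout and fell from a mean of 4.91 to 1.60 CPM (log2 fold change -1.67, SE 0.41, adjusted p = 0.0066). Ighm, the mu heavy chain locus, had a log2 fold change of -0.41 (adjusted p = 0.02), and the call was lost without Perinatal BM 1 or Perinatal BM 2 (highest adjusted p 0.055). The B cell marker sum given above was lower in young adult libraries too, with 2 of its 4 markers, Cd79a and Ebf1 themselves, called lower, and the part of B cells in these results was not tested. Of 20 T and NK cell genes 2 were higher and 1 lower, and the higher calls, Cd3d and Gzmb, were each lost without 7 of the 12 libraries in turn (highest adjusted p 0.10 and 0.11). Ets1, a transcription factor of lymphoid cells, fell by 0.26 on the log2 scale (adjusted p = 0.0076), but with regions at gene ends alone its value was 0.38.

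Called Hox, Notch and homing genes leaned the same way with smaller steps. Over all genes tested, 6.06% were lower and 6.81% higher. Of 17 Hox genes measured, 3 fell and 0 rose: Hoxa5 from a mean of 10.6 to 4.98 CPM (log2 fold change -1.14, SE 0.24, adjusted p = 0.0022), Hoxb4, long used to expand stem cells, by 0.69 (adjusted p = 0.008) and Hoxa3 by 0.55 (adjusted p = 0.0027). Hoxa5 and Hoxb4 each rest on 1 region at low counts. The number of Hox genes lower was 3 with 6w BM alone as young adult, 2 with 8w BM alone and 2 with gene ends only. In the Notch list, 6 of 17 fell and 1 rose, among them the target gene Heyl (log2 fold change -0.45, adjusted p = 0.011), the receptor Notch1 (-0.27, adjusted p = 0.012) and the ligand Jag2 (-0.33, adjusted p = 0.016). The feedback inhibitor Nrarp had a log2 fold change of -0.31 (adjusted p = 0.019), and was not called without 1w BM 3 (adjusted p = 0.050). With 6w BM alone 3 Notch genes were lower, with 8w BM alone 2 and with gene ends only 2. Of the single regions of the Notch list, 4.1% were lower, against 4.8% of all regions. In the homing and adhesion list, 6 of 24 fell and 1 rose. The number lower was 5 with 6w BM alone, 3 with 8w BM alone and 3 with gene ends only. Selplg, the P-selectin ligand that lets cells roll on vessel walls, fell from a mean of 75.6 to 58.4 CPM (log2 fold change -0.42, SE 0.09, adjusted p = 0.0021), Itgb1, the beta-1 integrin that anchors cells to the niche, fell by 0.29 (adjusted p = 0.0097) and Ccr1, a chemokine receptor, by 0.25 (adjusted p = 0.013), while Itgb2, the beta-2 integrin of mature leukocytes, rose by 0.32 (adjusted p = 0.012).

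No gene of general progenitor identity passed, and the genes called in the adult stem cell list were mostly lower. None of 20 blood progenitor identity genes passed in either direction (median log2 fold change -0.11), against 12.9% of all genes. Kit, the stem cell factor receptor, had a log2 fold change of -0.08 (SE 0.08, adjusted p = 0.55), Cd34 of 0.05 (SE 0.07, adjusted p = 0.70) and Ptprc, which encodes CD45, of -0.22 (SE 0.07, adjusted p = 0.050). The stem cell regulators Mecom (0.03, SE 0.06, adjusted p = 0.81) and Hlf (-0.03, SE 0.07, adjusted p = 0.84), the SLAM receptors Slamf1 (0.09, SE 0.11, adjusted p = 0.64) and Cd48 (-0.25, SE 0.12, adjusted p = 0.17), and the cytokine receptor Flt3 (-0.02, SE 0.07, adjusted p = 0.91) did not pass either, although Flt3 was higher with regions at gene ends alone (0.36, adjusted p = 0.023). Of 21 adult stem cell genes, 7 were lower and 1 higher, with a median of -0.16. Over all genes, 6.06% were lower and 6.81% higher. Gfi1, a repressor that restrains stem cell division, fell from a mean of 102 to 76.0 CPM (log2 fold change -0.46, SE 0.08, adjusted p = 3.8e-04). Ifitm1, an interferon-induced membrane protein, fell from a mean of 44.3 to 32.9 CPM (log2 fold change -0.47, SE 0.11, adjusted p = 0.0035). With 6w BM alone 3 of the adult stem cell genes were lower and with 8w BM alone 2, so that list's count rests on the pool of both.

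Within the lists of antigen presentation, interferon response and inflammation, the few genes called were higher in young adult marrow. The largest change was at H2-Q7, a nonclassical class I gene of the Qa-2 family, which rose from 6.83, 12.7 and 16.1 CPM in neonatal to 36.1, 39.5 and 50.5 CPM in young adult libraries (log2 fold change 1.68, SE 0.15, adjusted p = 2.7e-09). The pools were well separated, and levels climbed through 24.8 CPM at 3w and 32.2 CPM at 4w. H2-Q genes are near-identical copies of each other and reads could be shared between them, so the value may belong to the family rather than to this member. The promoter is shown because the region that carries the change lies on it (chr17:35438905-35439154, plus strand, RefSeq on GRCm38.p6). None of the searched motifs matched in these 250 bases, so no letter is in capitals.
H2-Q7 promoter: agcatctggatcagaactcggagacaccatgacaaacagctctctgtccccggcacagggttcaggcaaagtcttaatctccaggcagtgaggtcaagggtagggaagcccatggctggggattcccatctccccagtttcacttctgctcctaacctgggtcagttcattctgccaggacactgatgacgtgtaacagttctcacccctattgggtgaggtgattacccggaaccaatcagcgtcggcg
Over all genes, 6.81% rose and 6.06% fell. In the antigen presentation list 4 of 19 genes rose and 0 fell. Besides H2-Q7 these were Tap2, Nlrc5 and Ciita, a peptide transporter and the transactivators of class I and class II genes, at log2 fold changes of 0.32 to 0.38, and each of the 3 was not called without certain libraries (5, 7 and 7 of the 12 in turn, highest adjusted p 0.086, 0.088 and 0.10). Interferon response genes rose in 4 of 30 cases and fell in 0. The number higher was 3 with 6w BM alone as young adult, 1 with 8w BM alone and 1 with gene ends only. Zbp1, a sensor of viral nucleic acid, rose from a mean of 24.7 to 39.6 CPM (log2 fold change 0.64, SE 0.13, adjusted p = 9.8e-04), Ifi44, an interferon-induced gene, by 0.88 (adjusted p = 0.0079) and Trim30a, a TRIM-family gene, by 0.30 (adjusted p = 0.015). The remaining interferon call, Irf1 (0.24, adjusted p = 0.02), was lost without 4 of the 12 libraries in turn (highest adjusted p 0.064). In the inflammatory list 3 of 21 rose and 0 fell. Il1b, which encodes interleukin-1 beta, rose from 10.6, 13.4 and 15.1 CPM to 26.1, 28.1 and 34.8 CPM (log2 fold change 1.15, SE 0.14, adjusted p = 1.3e-06), with the change in a region 25700 bp from the gene (chr2:129337906-129338869, log2 fold change 1.46) and one inside it. Its level was already 27.6 CPM at 3w. Birc3, an inhibitor of apoptosis downstream of NF-kB, rose by 0.39 (adjusted p = 0.0079). Medians of the 3 lists were 0.01 to 0.05, close to the 0.00 of all genes. Of their single regions, 7.94% (antigen presentation), 3.92% (interferon response) and 5.56% (inflammatory) were higher, against 4.7% of all regions. The antigen presentation genes higher numbered 1 with 6w BM alone, 3 with 8w BM alone and 2 with gene ends only. Those of the inflammatory list numbered 2, 1 and 2. The sum of macrophage markers was also higher in young adult libraries (1 of 4 called, Cd68), and its part in these results was not tested.

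Immediate early genes, which respond within minutes to growth factors and stress, were called more often higher than lower in young adult marrow, and the number called depended on the stage used. Of 26 genes, 8 rose and 2 fell (30.8% and 7.69%, against 6.81% and 6.06% of all genes), with a median log2 fold change of 0.20. Jun, an AP-1 subunit, measured 160, 293 and 675 CPM in young adult and 55.8, 76.2 and 186 CPM in neonatal libraries (log2 fold change 2.01, SE 0.26, adjusted p = 4.2e-06). The pools overlapped, and the stage means were 500 CPM at 6w and 249 CPM at 8w. The larger change was in the region at the end of the gene (chr4:95048023-95049628), with a log2 fold change of 2.69 (adjusted p = 1.4e-07), and the region over the promoter (chr4:95052002-95052728), counted with another gene, rose by 0.57 (adjusted p = 1.9e-04). Egr1, a zinc finger factor linked to stem cell quiescence, rose from a mean of 234 to 389 CPM (log2 fold change 0.69, SE 0.11, adjusted p = 7e-05) and Zfp36, which destabilises inflammatory messages, from 238 to 414 CPM (log2 fold change 0.76, SE 0.12, adjusted p = 9.6e-05). Ier2, another early response gene, rose by 0.40 (adjusted p = 0.0042). With 6w BM alone as young adult 12 of the 26 were higher, and with 8w BM alone 3, namely Jun, Egr1 and Zfp36. Both of these comparisons share the neonatal libraries. The 6w libraries also differed among themselves. An example was a region in the last 1 kb of the list member Btg2 (chr1:134074206-134074972). It measured 85.8 CPM in 6w BM 1, 91.6 CPM in 6w BM 3 and 38.9 CPM in 6w BM 2. The 8w libraries had 36.5, 20.7 and 54.6 CPM, so stage and library could not be told apart there. Tested directly, none of the 26 passed between 8w and 6w BM: the log2 fold change was -0.96 at Jun (adjusted p = 0.57), -0.49 at Egr1 (adjusted p = 0.075) and -0.80 at Fos (adjusted p = 0.074). Over all genes, 2 of 16091 (0.0124%) passed between those stages and 611 had an unadjusted p under 0.05 (3.8%).

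Signalling and metabolic genes changed in both directions. In the TGF-beta and BMP list 4 of 22 genes rose and 3 fell (18.2% and 13.6%, against 6.81% and 6.06% of all genes). Ski, a corepressor that blocks SMAD proteins, rose from 321, 434 and 578 CPM in neonatal to 585, 692 and 951 CPM in young adult libraries (log2 fold change 0.72, SE 0.09, adjusted p = 2.3e-06), without overlap. Of its 12 regions 11 were called higher and 1 lower, and the gene had the most called regions in the upward direction together with Klf13 and Gse1. Its paralog Skil rose by 0.46 (adjusted p = 5.6e-04). Id1, a direct target of BMP signalling, fell by 0.48 (adjusted p = 8.4e-05) and the coreceptor Tgfbr3 by 0.41 (adjusted p = 3.5e-04). Klf13, a Krüppel-like factor, rose from a mean of 490 to 758 CPM (log2 fold change 0.59, SE 0.07, adjusted p = 2.3e-06) with 11 of its 20 regions higher. Gse1, a corepressor subunit with 64 regions, had 11 higher and rose by 0.22 as a sum (adjusted p = 0.014), but with regions at gene ends alone it was -0.72 (adjusted p = 0.05), and Myh9, the heavy chain of nonmuscle myosin, had 7 of 22 higher.

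Nuclear receptor and clock genes rose in 5 of 20 cases and fell in 2 (25.0% and 10.0%, against 6.81% and 6.06% of all genes). Ppard, a receptor that promotes fatty acid oxidation, rose from a mean of 176 to 253 CPM (log2 fold change 0.47, SE 0.08, adjusted p = 1.2e-04), and the clock repressors Nr1d2 and Bhlhe40 rose by 0.29 and 0.33 (adjusted p = 0.005 and 0.0073). Pparg, a regulator of fat storage, fell by 0.45 (adjusted p = 0.002). Among 20 sterol and fatty acid genes 3 rose and 1 fell, and Insig1, which retains the sterol sensor in the endoplasmic reticulum, rose by 0.33 (adjusted p = 0.0015). Cdkn1a, the cell cycle inhibitor p21, rose from a mean of 67.9 to 99.1 CPM (log2 fold change 0.49, SE 0.11, adjusted p = 0.0022), 1 of 2 quiescence genes called out of 18. Cell cycle genes as a list gave 1 call in 26 and oxidative phosphorylation genes 0 in 17. Glycolysis genes gave 1 call each way out of 19, with Gpi1, a glycolytic enzyme, higher by 0.39 (adjusted p = 0.0076). Of 18 JAK-STAT feedback genes 1 rose and 1 fell, the latter Socs2, an inhibitor of cytokine receptors (log2 fold change -0.36, adjusted p = 0.012). Among 25 cytokine receptors 4 rose and 4 fell, including Il3ra, the interleukin-3 receptor (0.40, adjusted p = 0.0036), and Il1r1, the interleukin-1 receptor (-0.33, adjusted p = 0.0055).

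Lists of mature lineages gave few calls in number. Of 18 neutrophil genes none passed, and the megakaryocyte list gave 1 call in 16. In the monocyte, macrophage and dendritic list 2 of 22 rose and 2 fell: Cd68, a lysosomal marker of macrophages, by 0.61 (adjusted p = 0.0022) and Siglech, a marker of plasmacytoid dendritic cells, by 0.53 (adjusted p = 4.8e-04) upward (-0.11 with gene ends alone), and the transcription factor Maf by 0.50 (adjusted p = 2.8e-04) downward, with Ccr2, a monocyte chemokine receptor, at -0.43 (adjusted p = 0.024) and not called without 6w BM 1 or Perinatal BM 1 (highest adjusted p 0.051). Of 16 erythroid genes 3 fell (18.8%, against 6.06% of all genes), among them the embryonic globin gene Hbb-y (log2 fold change -0.60, adjusted p = 0.0049) and its neighbour Hbb-bt (-0.64, adjusted p = 0.0096). The number of erythroid genes lower was 2 with 6w BM alone as young adult, 0 with 8w BM alone and 0 with gene ends only. Some globin genes are close copies of each other whose reads could be shared, so these fold changes are uncertain. Ccr3, the eotaxin receptor of eosinophils, fell by 0.59 (adjusted p = 0.0016). Among 20 chromatin regulators 3 fell and 1 rose, led by the remodeller Chd7 (log2 fold change -0.31, adjusted p = 0.0054). Genes of other tissues were also called: 4 of 20 endothelial genes fell, led by the scavenger receptor Stab2 (-0.45, adjusted p = 0.0059), and of 13 hepatocyte genes 1 rose and 2 fell, the latter Hnf4a (-0.59, adjusted p = 2.7e-04) and Alb (-0.82, adjusted p = 8.4e-04, but 0.19 with gene ends alone). Sums of 4 endothelial markers were 223 to 286 CPM in neonatal and 208 to 235 CPM in young adult libraries, those of 4 hepatocyte markers 46.7 to 69.2 and 43.8 to 51.7 CPM, and the part of such cells was not tested. The neuronal reference list gave 2 lower of 19, with Syt1, a synaptic vesicle protein, at -0.85 (adjusted p = 0.0029), a share of 10.5% against the 6.06% of all genes.

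**Figure D3:**
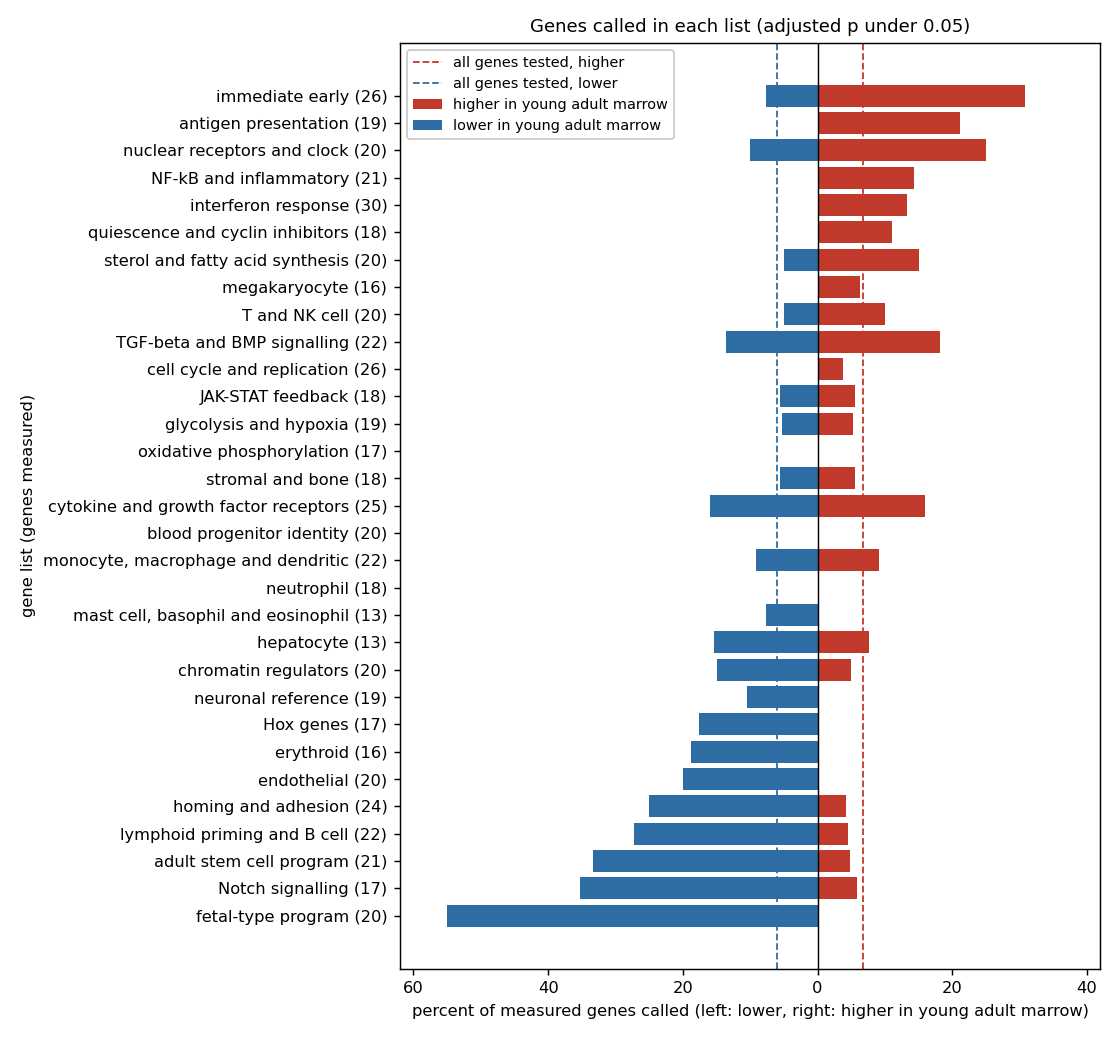
Share of measured genes called lower (blue, to the left) and higher (red, to the right) in young adult marrow for each of 31 gene lists, in percent, with the number of genes measured in brackets and dashed lines at the shares of all genes tested (6.06% lower, 6.81% higher). The fetal-type program has the longest bar to the left, at 55.0%, and immediate early genes the longest to the right, at 30.8%.

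Called regions were not spread evenly over the genome. Promoter regions (overlapping 250 bases before to 50 after a RefSeq start) were called at 3.60% higher and 4.06% lower, and at least 2-fold changes there were rarer still, at 0.293% and 1.04% against 1.66% and 2.08% of all regions. Regions with no named gene within 50 kb were called lower at 7.05%, against 4.80% of all. The windows up to 5 kb past the end of a gene went the other way: 152 of 2229 (6.82%) were higher and 50 (2.24%) lower. Strand, and so the end of the gene, was not known for 13855 regions, which are counted apart. The regions past Actg1 and Vmp1 belong to the former class, and those at Neat1, a nuclear noncoding RNA that builds paraspeckles, to the latter. Neat1 summed to 141, 183 and 217 CPM in neonatal and 352, 465 and 771 CPM in young adult libraries (log2 fold change 1.45, SE 0.13, adjusted p = 4.5e-09), with 9 of its 11 regions higher. The 4 largest changes lay side by side inside the gene, from 3.61 at chr19:5839658-5840170 to 2.30 at chr19:5842471-5843334, while a region further along (chr19:5845296-5845949) had a log2 fold change of 0.37. As at Jun, the mean of the 6w libraries (588 CPM) was above that of the 8w libraries (427 CPM), but Neat1 did not pass between 8w and 6w (log2 fold change -0.41, adjusted p = 1.0). The 6w libraries were split at chr19:5840539-5841118, with 92.2 CPM in 6w BM 1, 127 CPM in 6w BM 3 and 39.1 CPM in 6w BM 2. The split recurred at the Actb region (57.8 and 95.1 against 33.8 CPM) and the Actg1 region (44.9 and 69.6 against 27.5 CPM). At others, such as Trpc6 and Creb5, 6w BM 2 was the highest 6w library (41.2 and 36.9 CPM). Regions that share the split may not be independent results.

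**Figure D4:**
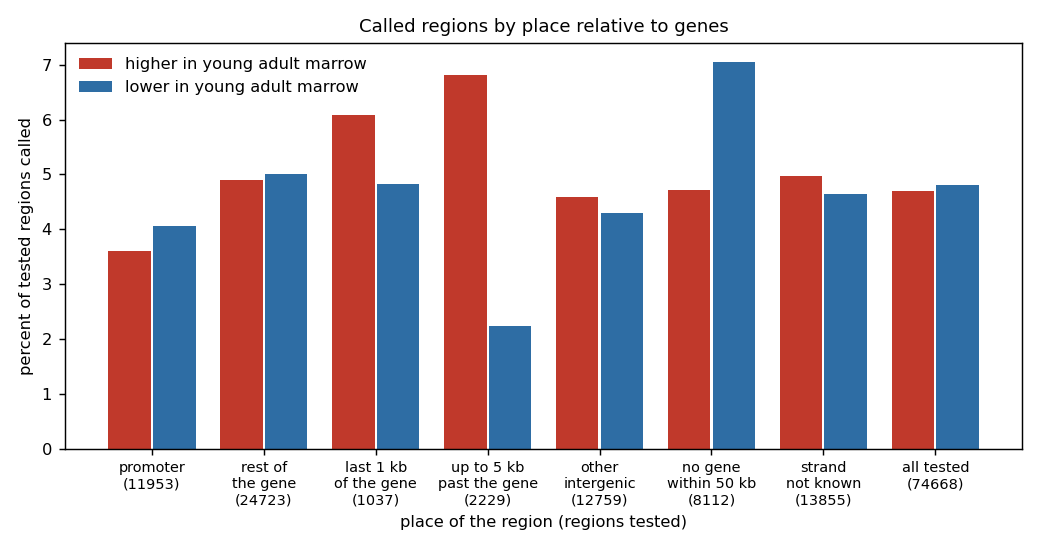
Percent of tested regions called higher (red) and lower (blue) in young adult marrow, by place relative to genes, with the number of regions tested in brackets. Windows up to 5 kb past a gene stand at 6.82% higher and 2.24% lower, and regions with no gene within 50 kb at 4.72% and 7.05%.

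Genes with the most closed regions were Dym, Arid1b (7 each), Igf2bp3, Pitpnm2 and Fam155a (6 each). Pitpnm2, a lipid transfer protein gene, fell as a sum from a mean of 119 to 77.4 CPM (log2 fold change -0.66, SE 0.08, adjusted p = 2.3e-06) and Fam155a, which encodes an ion channel subunit, from 141 to 90.2 CPM (-0.68, SE 0.09, adjusted p = 3.9e-06). Arid1b, a subunit of the BAF chromatin remodeller, had 7 of 55 regions lower and 1 higher but a summed log2 fold change of only -0.13 (adjusted p = 0.12), and Dym likewise did not pass (-0.16, adjusted p = 0.081).

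Several microRNA genes lay beside changed regions. Of 919 autosomal hairpins, 207 had a tested region within 1 kb, and 19 of these had a higher and 13 a lower region, where 4.7% and 4.8% of all tested regions were higher and lower. Hairpins of a cluster share regions and a hairpin can have several, so these counts are not set against that background. The 2 with the smallest p, chosen after their values were seen, were Mir21a and the cluster of Mir23a, Mir27a and Mir24-2. The region at Mir21a (chr11:86582742-86583242), which also lies 616 bp past the gene Vmp1, measured 10.5, 19 and 36.8 CPM in young adult and 0.36, 1.79 and 4.66 CPM in neonatal libraries (log2 fold change 3.18, SE 0.32, adjusted p = 4.4e-09). Downstream of Mir24-2, within 1 kb, a region (chr8:84209780-84210863) rose from 14.8, 23.2 and 29.3 CPM to 36.0, 55.5 and 108 CPM (log2 fold change 1.49, adjusted p = 3.8e-07), and one just before the cluster (chr8:84207682-84208260) by 0.82 (adjusted p = 0.0015). Both also lie within 5 kb past the gene Zswim4. Accessibility beside a hairpin is not a measure of the mature microRNA. The mature sequences of these genes from RefSeq are given 5′ to 3′ to show which messages they could pair with, and the seed, bases 2 to 8, is in capitals.
mmu-miR-21a-5p: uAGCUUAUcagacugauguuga
mmu-miR-23a-3p: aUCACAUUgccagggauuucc
mmu-miR-27a-3p: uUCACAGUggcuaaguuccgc
mmu-miR-24-3p: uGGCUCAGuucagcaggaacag
No seed is shared among the 4, although those of miR-23a-3p and miR-27a-3p both begin with UCACA.

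Promoters on either side differed in their letters. Of the 300-base RefSeq promoters, 562 overlapped a higher and 585 a lower region, out of 15021 at tested regions and 31365 in all. The ETS letters CCGGAAG were found on either strand in 21.5% of promoters at higher and 5.30% at lower regions, against 16.1% of those tested and 9% of all. The E-box letters CAGCTG and CAGGTG went the other way, at 13.0% and 14.6% of higher and 19.3% and 23.8% of lower promoters, against 15.5% and 18.7% of those tested. AP-1 letters TGANTCA were at 6.23% and 6.84%. The other motifs, also searched on both strands, were AGATAA for GATA factors, AGGAAGT for PU.1, TGTGGTT for RUNX, GGGCGTG for KLF factors, TTGCNNAA for C/EBP, TTCCNGGAA for STAT, TGACAG for MEIS, and the long motifs ISRE and EBF. Matches of different motifs can overlap, as those of AP-1 and CAGCTG do at their ends. Median GC content was 60% at higher, 62.7% at lower and 61.7% at tested promoters, and its part in the motif shares was not tested.

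Fewer regions passed between the stages of a pool, with 3 libraries against 3, than between the pools, with 6 against 6. Between 1w and Perinatal BM 201 of 81983 regions passed (0.245%), 40 higher (0.0488%) and 161 lower (0.196%) in 1w, and between 8w and 6w BM 108 (0.132%), 3 higher (0.00366%) and 105 lower (0.128%) in 8w. At an unadjusted p under 0.05 these were 8.65% and 4.66% of regions. On the first principal component Perinatal BM (-42.2 to -38.5) and 1w BM (-30.6 to -9.1) did not overlap. Genes passing between 1w and Perinatal BM were 52 of 16091 (0.323%), 4 of them higher (0.0249%). The stage comparisons shared 80 regions, so the 201 and 108 are not separate sets, and 229 regions passed in either. Why the same regions varied within both pools was not tested. Of the 7095 regions above, 97 also differed inside a pool, and 6998 remained without them. At the stages between the pools, the median called region had gone 63.5% of the way from the neonatal to the young adult mean by 3w and 69.4% by 4w among higher, and 61.4% and 78.4% among lower regions. In 4w BM, 73.1% of higher and 79.3% of lower regions were nearer the young adult mean. The regions were chosen for their difference between the 12 tested libraries, so libraries outside that choice tend to fall short of the full distance, and these positions are a description only.

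Fetal liver lay beyond neonatal marrow at the median higher region, but its place at lower regions could not be decided. For higher regions the E16.5 liver sat on the far side of neonatal marrow, at -17.5% of the way, but for lower regions it sat 40.4% of the way towards young adult marrow. Liver levels at least 2-fold below neonatal marrow were found at 244 higher regions (6.96%) and 247 lower regions (6.89%), against 2.38% of all tested regions. Levels at least 2-fold above neonatal marrow were found at 3.25% and 0.725%, against 1.73%. The neonatal means enter both measures, so the shares of lower regions partly share their values with the test. Lower regions were chosen for high levels in these neonatal libraries, so libraries outside the choice tend to fall towards young adult marrow there. The 40.4% cannot separate that tendency from a difference of the liver.

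**Figure D5:**
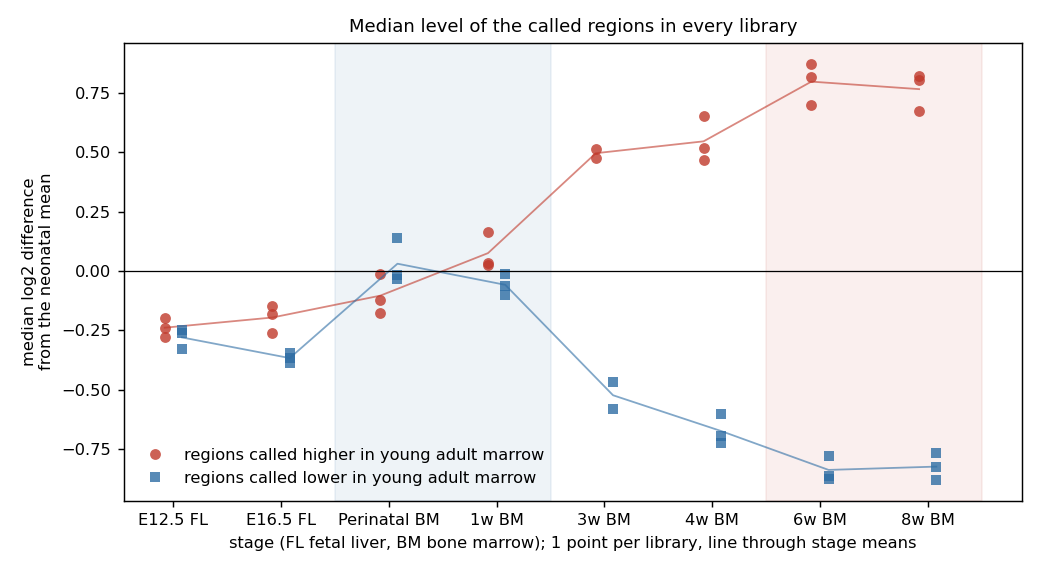
Median log2 difference from the neonatal mean over the regions called higher (red circles) and lower (blue squares) in young adult marrow, with 1 point per library, lines through stage means, and the neonatal and young adult pools shaded. Both curves leave 0 after 1w, and both lie below 0 in fetal liver. The E16.5 libraries lie at -0.262 to -0.146 for higher and -0.386 to -0.347 for lower regions.

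The authors' peak lists, called per library, gave a second view of the called regions that depends on the same reads. A peak was present in more lists of the more open pool at 66.0% of higher and 71.3% of lower regions, where over all tested regions 30.4% had more young adult and 21.6% more neonatal lists. Peaks were present in all 6 lists of the more open pool and in none of the other at 53 higher and 15 lower regions. The number of peaks per library was 38740 ± 7576 (SD, n = 6) in young adult and 36411 ± 10911 (n = 6) in neonatal libraries and differed by less than the spread (exact permutation test, two-sided p = 0.584, smallest possible 0.00216). The share of counts at gene ends was 43.7 ± 1.17% and 42.8 ± 1.72% (exact permutation test, two-sided p = 0.288, adjusted over 3 library measures p = 0.535).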

How the data were processed

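Nuclei of LSK cells were treated with Tn5 and the fragments amplified by PCR, per the labels' protocols. Build mm10 and the tools Trim Galore, MACS2, HOMER, DiffBind and deepTools come from the submitters' processing notes. How reads were aligned, deduplicated and shifted for the Tn5 cut, the MACS2 settings and the merging of regions are not given in the sources used here. A missing shift would move cut sites by a few bases only, small beside these regions, while duplicates would raise counts unevenly. The deposited table holds raw counts per region, whole numbers with no scaling, over 99037 regions of 501 to 2971 bp (median 551), of which 96960 are autosomal. The deposited peak lists, per library, hold a display score, a fold enrichment ratio and a −log10 p-value and q-value for each peak, from the authors' peak caller; here only positions and −log10 q were used.

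Regions were kept by filterByExpr (minimum count 10), scaled by TMM and tested two-sided, young adult over neonatal, by quasi-likelihood in edgeR 4.0.16 (R 4.3.3), with Benjamini-Hochberg adjustment at 0.05 over all regions. Comparisons of stages inside a pool came from a fit of the same 12 libraries with a mean per stage. Levels are CPM scaled by TMM. Log2 levels added 0.5 CPM, except those behind the principal components, which used a prior count of 2. Each region went to the nearest of 19513 named autosomal genes of GRCm38.p6 within 50 kb, and counts were summed per gene. All 657 list genes matched. Replicates were compared for repeat deposits, and all pairs differed beyond counting noise, with a chi-square of 2.22 to 4.11 per region. The test was checked on simulated data. Depth limits what low regions can show. Other steps used SciPy 1.17.1, numpy 2.4.6 and pandas 2.3.3 under Python 3.11.15, with plots from matplotlib 3.10.9.

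Named regions were the 12 of smallest p in each direction, 1 per gene and without predicted genes, among called regions with a log2 fold change at or beyond 1 in size, more than the median level and pools that did not overlap. Named genes were at most 4 called members of smallest p per list, the 5 genes with the most called regions in each direction, and the genes Kit, Ly6a, Ptprc, Cd34, Flt3, Cd48, Slamf1, Lin28b, Hmga2, Igf2bp1, Igf2bp2, Igf2bp3, Mecom and Hlf always (Ly6a had too few counts to be tested). Some genes under this rule are not reported here. Promoters are shown for 4 of the 6 named genes with the smallest p for a region there. Groups, members, lists and rules were chosen with earlier results of these data known. Alternatives were DESeq2 1.42.0, its size factors, total counts, cyclic loess offsets, no filter, a mean per stage, all developmental libraries, a block for the replicate number, thinned counts (2789981 per library), each library left out, regions at gene ends only, a stricter peak threshold and a larger overlap.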

Additional observations from a re-analysis of the deposited data

Results flagged for a closer look

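Among 256 sets of 6 libraries checked, 16 had a library whose gap to the nearest other exceeded 0.625 of the set's range, the limit of Dixon's test, which chance alone passes in about 1 set in 20. In young adult marrow these were 6w BM 3 at the Tspoap1 region (253 CPM) and at Tgfbr3 (118 CPM), and 8w BM 2 at the Klf9 region (113 CPM) and Arid1b (579 CPM). The fifth was 8w BM 3 at Ghr (82.9 CPM). In neonatal marrow, 1w BM 1 was high at the Rgs1 region (92.7 CPM), Jun (186 CPM) and Arid1b (612 CPM). The library 1w BM 2, the shallowest of the 12, was low at the Igf2bp3 region (37.8 CPM) and high at Pparg (91.2 CPM) and Emcn (58.8 CPM). The deepest, 1w BM 3, was high at Hoxa5 (16.8 CPM), Hoxb4 (28.9 CPM) and Plvap (30.5 CPM), and Perinatal BM 1 was low at Selplg (57.8 CPM) and Egln3 (162 CPM). Without the library concerned, Emcn (highest adjusted p 0.061) and Plvap (highest adjusted p 0.11) were no longer called; Plvap also lost its call without 7 of the others.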

How the results depend on the processing

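The 24 named regions, chosen for small p and pools that did not overlap, kept their direction and their call in every alternative setting. This makes 552 pairs of a region and a setting. For the 102 named genes, 2123 of 2435 pairs of a gene and a setting kept direction and call. In 266 pairs the call was lost (59 genes), in 28 it was gained with the same sign (Igf2bp1, Ptprc, Dym and Arid1b) and in 18 the sign changed (11 genes). Of 91 named genes called, 65 kept the call without each library. Sign changed with gene ends only at Irf1 (-0.05), Ets1 (0.38), Siglech (-0.11), Alb (0.19), Gse1 (-0.72), Kit (0.00), Cd34 (-0.01), Flt3 (0.36, which passed at adjusted p = 0.023), Slamf1 (-0.33) and Mecom (-0.04). Flt3 also changed sign when thinned (0.01), without 1w BM 1 (0.03), 8w BM 3 (0.00) or Perinatal BM 2 (0.01; -0.06 to 0.03 over the libraries), and with 6w BM alone (0.01), Mecom with loess offsets (-0.01) and 8w BM alone (-0.02), and Hlf without Perinatal BM 2 (0.00).

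Regions called were 7684 with DESeq2, 7056 with its size factors, 7193 with loess offsets, 6788 without the filter, 8390 with a mean per stage, 7278 with all developmental libraries and 4973 after thinning. Gene ends only gave 1284 genes (687 higher, 597 lower), 874 of them among the 2044. Leaving out each library gave 5558 to 7719 regions (2614 to 3808 higher, 2669 to 3911 lower) and 1392 to 2056 genes (685 to 1000 higher, 698 to 1058 lower); the higher genes were 685 without 6w BM 2, 694 without 6w BM 3 and 713 without Perinatal BM 3. Chosen after seeing the data, 6w BM alone gave 4602 regions (1979 lower) and 715 higher genes, and 8w BM alone 3676 regions (2024 higher, 1652 lower) and 850 genes (395 higher, 455 lower). Fewer libraries enter both.

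Between 1w and Perinatal BM, DESeq2 called 72 regions (24 higher, 48 lower) and 63 were higher without the filter; leaving out a library gave 81 (without Perinatal BM 1) to 329 (without Perinatal BM 2), 12 to 95 higher and 69 to 234 lower. Between 8w and 6w BM, DESeq2 called 46 (44 lower) and 5 were higher without the filter; leaving out a library gave 61 (without 8w BM 2) to 132, 1 to 4 higher and 60 to 129 lower. The cause was not tested. The gene-end difference ran from 0.611 to 1.43 points and that of log10 peak numbers from 0.00403 to 0.0689.

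The replicate numbers share only a number: same-numbered libraries of different groups had correlations of -0.08 to 0.28, with 1 of 18 above 0.1. With the number as a replicate block 7138 regions and 2120 genes passed, and 6 regions were higher in 8w than in 6w BM.

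Depth limits the low regions: thinned to the smallest library, 1575 genes passed.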

Other observations

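Other gene groups outside the lists moved as well, and the genes below were chosen after their values were seen, as those of smallest p outside the lists. Adgrg3, an adhesion receptor gene that neighbours Adgrg1, rose from 75.3, 94.0 and 125 CPM (lowest, median and highest) in neonatal to 160, 166 and 183 CPM in young adult libraries (edgeR log2 fold change 0.78, SE 0.08, adjusted p = 4.9e-08), and its 3w mean was already 161 CPM. Trim30c, a relative of the interferon-induced Trim30a, rose from a mean of 34.3 to 65.6 CPM (log2 fold change 0.91, adjusted p = 7.4e-07). H2-Q6, a near-identical copy of H2-Q7 whose reads may be shared with it, rose by 1.45 (adjusted p = 2.5e-07). H1f2, a linker histone gene, rose from 63.5, 70.2 and 74.3 CPM to 99.6, 106 and 115 CPM (log2 fold change 0.57, adjusted p = 4e-06). Iqcn changed most in size among them, from a mean of 35.5 to 173 CPM (log2 fold change 2.24, adjusted p = 1.7e-06), but the 6w libraries 6w BM 1 (300 CPM) and 6w BM 3 (309 CPM) stood far above 6w BM 2 (88.4 CPM).

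Lower genes outside the lists, again a choice among those of smallest p, included the following. Pcdh9, a protocadherin, fell from a mean of 23.5 to 9.83 CPM (log2 fold change -1.29, adjusted p = 1.9e-06), Elavl4, a neuronal RNA-binding protein, by 0.91 (adjusted p = 1.9e-06), and Ryr2, the cardiac calcium release channel, by 1.06 (adjusted p = 4.2e-06). Sfrp1, a Wnt antagonist, fell from a mean of 19.1 to 8.78 CPM (log2 fold change -1.15, adjusted p = 3.1e-05), and Trbc2, a T cell receptor constant gene, from 85.5 to 56.5 CPM (log2 fold change -0.63, adjusted p = 3.2e-05).

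Windows at or past the ends of genes held further large increases, again chosen after their values were seen: Btg2, an antiproliferative early response gene, had a region in its last 1 kb (chr1:134074206-134074972) that rose from 3.88, 6.21 and 14.7 CPM to 20.7, 46.8 and 91.6 CPM (log2 fold change 2.73, adjusted p = 2.1e-09). The region 159 bp past Malat1, a nuclear noncoding RNA (chr19:5794638-5795531), rose by 2.32 (adjusted p = 3.2e-08), and that past H3f3b, which encodes histone H3.3 (chr11:116019274-116021045), by 1.82 (adjusted p = 3.1e-08). At H3f3b the fetal liver means were 50.7 CPM at E12.5 and 73.8 CPM at E16.5, beside 58.3 CPM in young adult and 16 CPM in neonatal marrow. At Malat1 they were 23.7 and 26.1 CPM, beside 33.5 and 6.28 CPM.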
